A study of Bos taurus with 15 samples.

Results

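The barcodes described here are those of the newborn (NB) cattle gut that carried HIGD1B, a small mitochondrial membrane protein gene used as a pericyte marker. They came from 8 single-cell RNA sequencing libraries: the stomach compartments reticulum and abomasum, the small intestinal duodenum, jejunum and ileum, and the large intestinal cecum, colon and rectum. A barcode was taken when it held 500 to 4000 detected genes, under 50000 UMIs (unique molecular identifiers, the counted molecules), at least 1 UMI of HIGD1B, and 0 UMIs of PECAM1, PTPRC and EPCAM, which mark endothelial, immune and epithelial cells. The rule found 784 of the 65497 barcodes within the gene and UMI limits in these libraries. It rests on measured UMIs, so the values of HIGD1B and of the excluded genes are given as descriptions only.

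The series holds 15 libraries of digestive tract tissues, 11 of NB calves and 4 of 1 adult (AD) cow, which the study analysed together with other data, and the AD tissues and the NB omasum, liver and salivary gland stay outside the rule. All 8 libraries used were of Holstein dairy cattle at the NB stage, with 1 library per tissue. The NB tissues came from 3 calves, and the calf behind each library is not given in the sources used here. The muscle layers were stripped from the NB samples before dissociation, with EDTA and trypsin steps for all and different enzymes for the stomach and the intestinal samples.

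Pericytes wrap the endothelium of capillaries and small venules and share its basement membrane. They are kept in place by PDGF-B from the endothelium acting on PDGFRB, and they take part in control of capillary flow through contractile proteins, ion channels and receptors for vasoactive signals. In the gut they lie in the mucosa and submucosa beside other contractile cells, such as vascular smooth muscle and the thin muscle of the mucosa.

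Barcodes of 2 other stromal classes served as contrasts, under the same limits and with 0 UMIs of HIGD1B, PECAM1, PTPRC and EPCAM. Barcodes with at least 1 UMI of both MYH11 and ACTG2, genes of the contractile apparatus, numbered 2014. Barcodes with at least 1 UMI of both PDGFRA and DCN, genes of fibroblasts, numbered 3504. The contrast classes were not exclusive, and 410 barcodes were in both. All 3 classes are gates on genes and not sorted cells. In the MYH11 ACTG2 barcodes DES, the muscle intermediate filament gene, had a UMI in 3.39% to 94.1% of barcodes per library, and PDGFRA in 0 to 71.5%, so its make-up differed between libraries.

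Levels below are CPM (counts per 1000000), the UMIs of a gene in a class and library over all UMIs of that class and library, scaled to 1000000. Folds are log2 differences (HIGD1B barcodes minus the other class) with the standard error (SE), from edgeR's quasi-likelihood test on UMIs summed per class and library, with library as a block and Benjamini-Hochberg adjustment over all genes tested. The gate genes were left out of the tests. Since each library is another tissue, the p-values measure the spread of the class difference between tissues, and not between calves. A call stands for an adjusted p under 0.05.

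The 8 libraries held 62529511 to 125527022 UMIs in all. The median depth of the HIGD1B barcodes was 2546 to 6663 UMIs per library, that of the MYH11 ACTG2 barcodes 2660 to 8615, and that of the PDGFRA DCN barcodes 1952.5 to 8339. Of the 784 barcodes, 8 had a sequence that was also within the limits in another of the 8 libraries, and 0 were members in 2 libraries. A doublet score placed 44 of them among the likely doublets, and 1 had at least 40% mitochondrial UMIs.

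The label was checked against RGS5, NOTCH3, COX4I2, NDUFA4L2 and KCNJ8, which are known from pericytes and were not used by the rule. At least 1 of these 5 genes had a UMI in 728 of 784 HIGD1B barcodes (92.9%, exact 95% interval 90.8 to 94.6), in 73.3% of the MYH11 ACTG2 barcodes and in 39.0% of the PDGFRA DCN barcodes. RGS5 was detected in 75.3% of the HIGD1B barcodes, NOTCH3 in 74.7%, COX4I2 in 65.1%, NDUFA4L2 in 61.2%, KCNJ8 in 54.2% and PDGFRB in 19.3%. UMIs of MYH11 or ACTG2 were found in 375 of the HIGD1B barcodes (47.8%), of both in 141 (18.0%), and of ACTA2 in 71.6%. As 73.3% of the MYH11 ACTG2 barcodes also held 1 of the 5 genes, the check cannot separate pericytes from other contractile cells. Intervals here and below cover counting error only.

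The gate sits at a single UMI, and 362 members had exactly 1 UMI of HIGD1B while 422 had 2 or more, up to 34. Among those with 2 or more, 419 (99.3%) held at least 1 of the 5 genes. Among those with 1 UMI it was 309 (85.4%), from 6 of 15 in the reticulum to 19 of 20 in the duodenum. For comparison, free RNA can place a HIGD1B UMI in other cells, and the barcodes with EPCAM carried one in 0.399% of 17782 cases at library median depths of 6994.5 to 12467 UMIs. The barcodes with PTPRC carried one in 0.363% of 9920 and those with PECAM1 in 0.823% of 9230. Those with PDGFRA and DCN carried one in 1.21% of 3547, and those with MYH11 and ACTG2 in 6.54% of 2155. The barcodes behind these last values, 43 and 141, passed the gate and are members themselves. They therefore give no rate for other cells.

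Cecum and rectum stood apart from the other 6 libraries. UMIs of both PDGFRA and DCN were found in 12 of the 24 cecum members and in 10 of the 40 rectum members, against 0 to 15 members in each of the others, where they made up at most 9.52%. The MYH11 ACTG2 barcodes held such UMIs too, in 105 of 225 (46.7%) in the cecum, 158 of 542 (29.2%) in the rectum, 23 of 59 (39.0%) in the colon and 0 to 19.0% in the other 5 libraries. The summed level of 15 fibroblast markers was 42857 CPM in the cecum members and 37683 CPM in the rectum members, against 3441 to 11095 CPM in the other 6 libraries. It was 2930.4 to 40140.2 CPM in the MYH11 ACTG2 barcodes and 32892 to 67576 CPM in the PDGFRA DCN barcodes. In the rectum COL1A2, a collagen I chain, was at 6166 CPM in the 30 members with 1 HIGD1B UMI and at 1367 CPM in the 10 with 2 or more, PDGFRA was at 191 and 35.5 CPM, and both PDGFRA and DCN had UMIs in 9 and in 1 of them. In the cecum COL1A2 was at 8288 CPM in the 15 members with 1 UMI and at 4621 CPM in the 9 with more, and PDGFRA at 1163 and 573 CPM. Results without these 2 libraries are given below. In the abomasum, 18 epithelial markers summed to 26490 CPM in the HIGD1B barcodes, 20656 in the MYH11 ACTG2 barcodes and 20624 in the PDGFRA DCN barcodes, all at EPCAM 0. In the reticulum KRT5, a keratin of squamous epithelium, stood at 2025, 459.7 and 1013 CPM in the same order. Among the members there it was at 4634 CPM in the 15 with 1 HIGD1B UMI, 14 of which held KRT5, and at 774 CPM in the 37 with 2 or more. The part of the epithelial markers in the results was not tested.

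Markers of further cell types were low. The endothelial list of 16 genes summed to 119 to 770 CPM, and CDH5, the junctional cadherin of endothelium, stood at 0 to 18.8 CPM. The leukocyte list of 18 genes summed to 92.1 to 745 CPM. The 9 glial genes summed to 51.2 to 191 CPM, 5 genes of the interstitial cells of Cajal to 31.3 to 109 CPM, 6 mesothelial genes to 7.96 to 51.8 CPM and 8 erythroid genes to 0 to 11.3 CPM. CDH19 of the glial list, WT1 and LRRN4 of the mesothelial list and 4 of the 8 erythroid genes were at 0 in all 8 libraries.

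Jejunum held the largest share of HIGD1B barcodes. They made up 2.83% of its barcodes within the limits (371 of 13105, exact 95% interval 2.55 to 3.13). Ileum followed at 1.30% (98 barcodes, 1.05 to 1.58), then abomasum at 0.980% (98 barcodes, 0.796 to 1.19) and duodenum at 0.943% (80 barcodes, 0.748 to 1.17). The interval of the ileum overlapped those of abomasum and duodenum, and that of the jejunum overlapped none.

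Reticulum had 0.692% (52 barcodes, 0.517 to 0.907), rectum 0.524% (40 barcodes, 0.375 to 0.713), colon 0.437% (21 barcodes, 0.271 to 0.668) and cecum 0.375% (24 barcodes, 0.241 to 0.558). The 3 large intestinal libraries thus lay below the 3 small intestinal ones, and their intervals overlapped each other. In the cecum the EPCAM and PTPRC barcodes carried a HIGD1B UMI in 0.551% and 0.432% of cases, above the share of members. In the colon it was 0.205% and 0.209%, and in the rectum 0.248% and 0. How far free RNA adds to these shares was not tested. With all barcodes that held both PDGFRA and DCN taken out of the members and of the barcodes they are a share of, the cecum share was 0.216%. There was 1 library per tissue, so no test between tissues was made, and fewer pericytes cannot be told apart from fewer that survived dissociation.

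**Figure D1:**
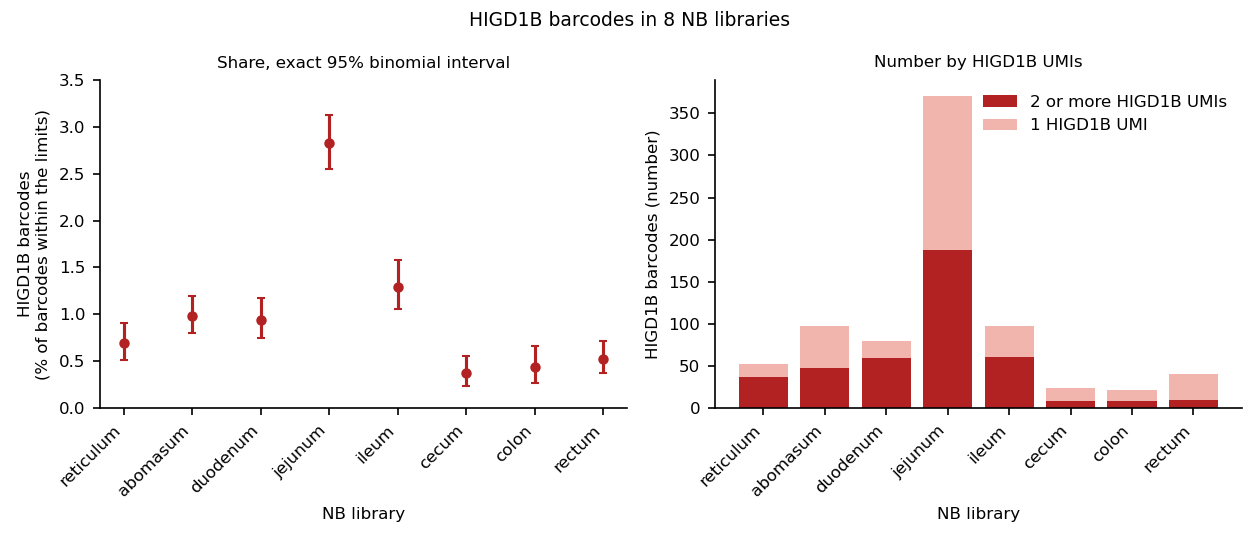
Left, share of HIGD1B barcodes among the barcodes within the limits (percent, exact 95% binomial intervals as bars) in the 8 NB libraries, and right, their number split into barcodes with 1 and with 2 or more HIGD1B UMIs. The jejunum stands highest, at 2.83% and 371 barcodes, and the cecum has the lowest share, 0.375%.

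In 7 libraries with at least 20 barcodes of each class, the HIGD1B barcodes were compared with the MYH11 ACTG2 barcodes, which asks what sets these barcodes apart from other contractile ones. The reticulum had 17 MYH11 ACTG2 barcodes and was left out. Of 5632 genes tested, 692 (12.3%) differed, 348 (6.18%) of them higher and 344 (6.11%) lower in the HIGD1B barcodes, and 8.45% of the genes were called with the same direction in every library. The PDGFRA DCN barcodes were compared in all 8 libraries, where 534 (9.24%) of 5778 genes were higher, 697 (12.1%) were lower, 21.3% differed in either direction and 11.5% did so with the same direction in every library. Counts of called genes within lists are to be read beside these shares of all genes. Both comparisons use the same HIGD1B barcodes, so their values are given side by side and not as separate evidence.

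The 28 genes of the pericyte identity list were chosen as known pericyte markers, with earlier results of these data known. Both contrast classes were gated on 0 UMIs of HIGD1B, so counts of these genes are not independent of the gate. Against the MYH11 ACTG2 barcodes 18 were tested, of which 13 were higher and 1 was lower, with a median log2 difference of 1.84 beside 0.0036 for all genes tested. Against the PDGFRA DCN barcodes 14 of 18 were higher and 1 lower, with a median of 2.62 beside -0.0105 for all genes. With no filter on low counts all 28 were tested. Then 16 were higher and 4 lower in the first contrast, beside 555 and 813 of all 17006 genes. In the second 20 were higher and 4 lower, beside 777 and 1211 of 17751. Without cecum and rectum 14 were higher and 1 lower in the first contrast. When barcodes with PDGFRA were removed from both classes, which left 5 libraries, 5 of 18 were called higher against the MYH11 ACTG2 barcodes and 16 of 18 had a positive difference.

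The genes COX4I2 and NDUFA4L2, for mitochondrial proteins, were among the higher ones. COX4I2, the isoform of cytochrome c oxidase subunit 4 tied to oxygen sensing, stood at 113 (lowest), 679.6 (median) and 904 (highest) CPM in the HIGD1B barcodes of the 7 libraries and at 2.28, 69.9 and 278 CPM in the MYH11 ACTG2 barcodes. It was higher in the HIGD1B barcodes in 7 of 7 libraries, by 3.14 ± 0.54 (log2, SE, adjusted p = 0.0028), although the ranges of the 2 classes overlapped because the cecum and rectum members were low. In the PDGFRA DCN barcodes it was near absent, at 0 to 2.17 CPM, and the difference was 8.90 ± 0.31 (adjusted p = 6.22e-09).

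NDUFA4L2, a hypoxia-induced paralog of a cytochrome c oxidase subunit, had 43.8, 397 and 753 CPM in the HIGD1B barcodes and 4.28, 85.5 and 444 CPM in the MYH11 ACTG2 barcodes. Duodenum and jejunum were highest and cecum and rectum lowest in both classes, and the difference was 2.45 ± 0.51 (adjusted p = 0.00764). Against the PDGFRA DCN barcodes it was 7.78 ± 0.34 (adjusted p = 2.81e-08). With PDGFRA barcodes removed from both classes the differences to the MYH11 ACTG2 barcodes were 1.86 (adjusted p = 0.115) for COX4I2 and 1.54 (adjusted p = 0.365) for NDUFA4L2.

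The common isoforms are given beside them. COX4I1, the general form of the subunit, had 994 to 1358 CPM in the HIGD1B barcodes and 1080 to 1481 CPM in the MYH11 ACTG2 barcodes. NDUFA4, the general counterpart of NDUFA4L2, had 162, 246 and 732 CPM against 531, 661 and 750 CPM and was lower in the HIGD1B barcodes in 7 of 7 libraries (-1.17 ± 0.22, adjusted p = 0.0043). Cecum and rectum, where fibroblast genes were high, held its highest levels among the HIGD1B barcodes. Of the 17 tested genes for mitochondrial isoforms and hypoxia responses, 3 were higher and 3 lower, with a median of 0.01, and ADM, a hypoxia-induced vasodilator peptide gene, was among the lower ones (-2.02 ± 0.17, adjusted p = 4.98e-05). LDHA, which makes lactate from pyruvate, was higher by 0.55 ± 0.15 (adjusted p = 0.0313).

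Both subunits of the vascular ATP-sensitive potassium channel were higher. KCNJ8, its pore, had 68.8, 269 and 365 CPM in the HIGD1B barcodes and 5.42, 33.7 and 104 CPM in the MYH11 ACTG2 barcodes. The ranges overlapped only because of the cecum, and the difference was 2.85 ± 0.31 (adjusted p = 0.0002). ABCC9, its sulfonylurea receptor subunit, had 18.8, 93.3 and 123 CPM against 1.71, 14.5 and 65.4 CPM (2.08 ± 0.30, adjusted p = 0.001). Both kept their call without PDGFRA barcodes, at 3.40 (adjusted p = 0.00136) and 2.37 (adjusted p = 0.018). Against the PDGFRA DCN barcodes they were higher by 3.78 ± 0.32 and 2.79 ± 0.35 (adjusted p = 5.89e-06 and 0.000159).

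**Figure D2:**
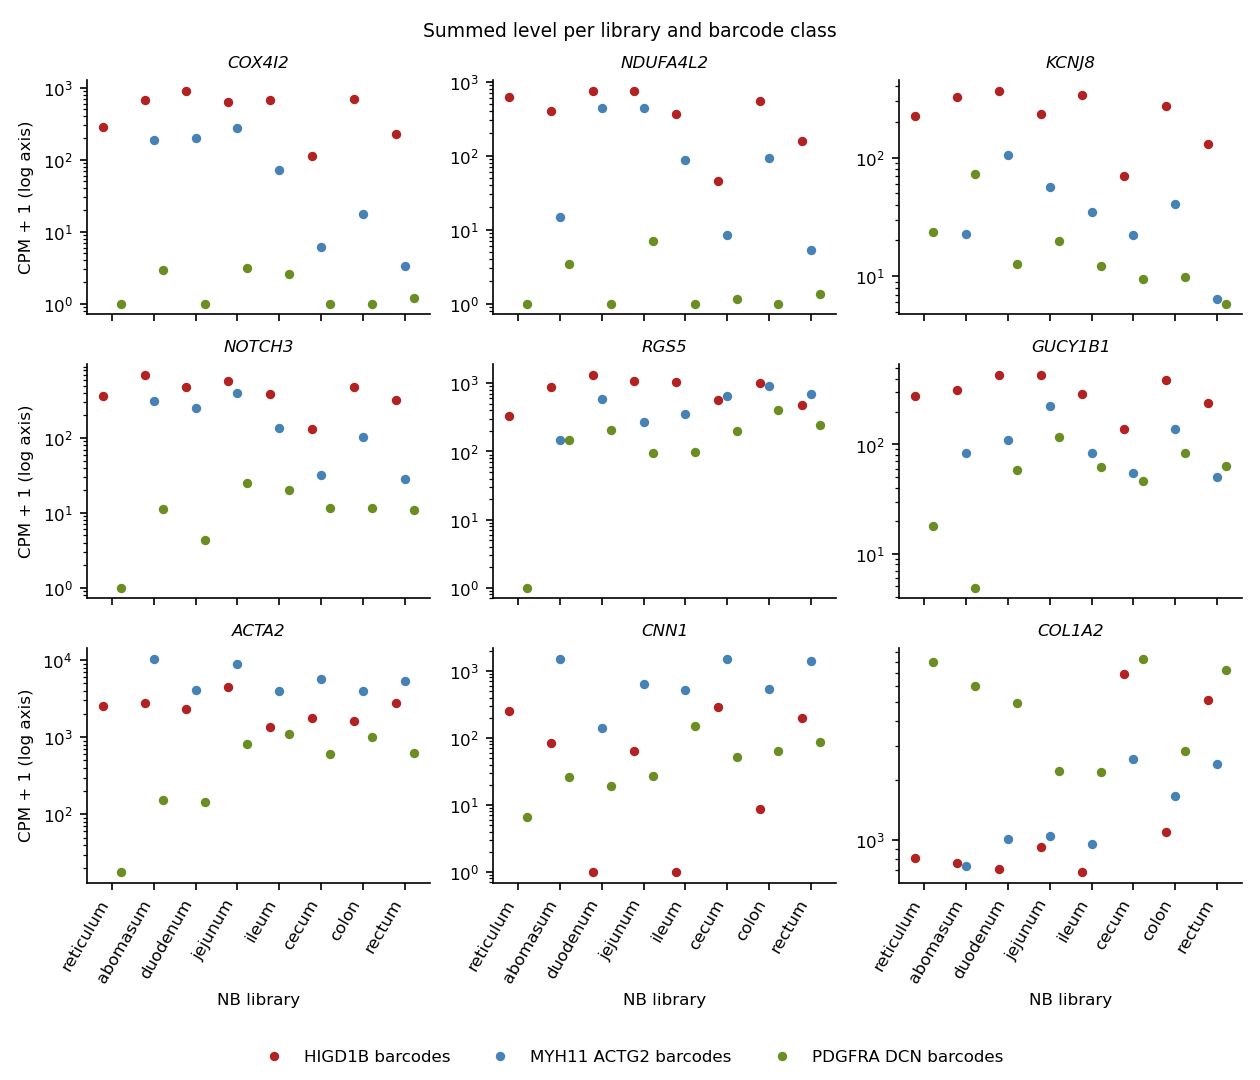
Levels of 9 genes (CPM + 1, log axis) by NB library, with 1 point for each barcode class in a library and no MYH11 ACTG2 point for the reticulum. COX4I2 stands at 113 to 904 CPM in the HIGD1B barcodes and at 0 to 2.17 CPM in the PDGFRA DCN barcodes, while ACTA2 is highest in the MYH11 ACTG2 barcodes of each library that has them.

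PDGFRB and 4 of 7 tested NOTCH pathway genes were higher than in the MYH11 ACTG2 barcodes. PDGFRB, the receptor for PDGF-B, was low throughout, at 12.5, 54.1 and 95.4 CPM against 4.81, 16.8 and 29.0 CPM, with the colon as the library that went the other way (2.03 ± 0.35, adjusted p = 0.00269). NOTCH3, the mural cell NOTCH receptor, had 131, 480 and 698 CPM against 27.1, 135 and 392 CPM (1.68 ± 0.30, adjusted p = 0.00373). HEYL, a NOTCH target, was higher by 2.15 ± 0.34 (adjusted p = 0.00178) and HES1, another target, by 0.88 ± 0.21 in 6 of 7 libraries (adjusted p = 0.0183). Of the 7 NOTCH pathway genes 0 were lower and 3 not called, and the median was 0.88. With PDGFRA barcodes removed, a fit on 5 libraries that called 128 higher and 137 lower of 4817 genes, 0 of these 7 were called, NOTCH3 being at 0.74 (adjusted p = 0.485) and HEYL at 1.41 (adjusted p = 0.2).

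RGS5, a regulator of G protein signalling and the most used pericyte marker, did not pass the test between the 2 contractile classes. Its level was 486, 1021 and 1335 CPM in the HIGD1B barcodes and 148, 579 and 908 CPM in the MYH11 ACTG2 barcodes. The difference was 1.03 ± 0.33 with 5 of 7 libraries higher (adjusted p = 0.0686), cecum and rectum being the other ones. It passed without cecum and rectum, at 1.55 (adjusted p = 0.00431), with at least 2 HIGD1B UMIs, at 2.09 (adjusted p = 0.00037, 4 libraries), without PDGFRA and DCN barcodes, at 1.40 (adjusted p = 0.0344, 5 libraries), and by DESeq2, at 1.03 (adjusted p = 0.0437). With doublets removed it did not pass (0.96, adjusted p = 0.129). Nor did it with PDGFRA barcodes removed (1.42, adjusted p = 0.0774) or with DES required in the contrast class (1.12, adjusted p = 0.359). Without scaling factors it was 0.98 (adjusted p = 0.089), and with at least 2 UMIs of MYH11 and ACTG2 0.96 (adjusted p = 0.159). Leaving out abomasum, duodenum, jejunum, ileum or colon gave adjusted p of 0.0715 to 0.191, and under 40% mitochondrial UMIs it was 0.0689. RGS5 passed without the cecum (1.23, adjusted p = 0.0406) and without the rectum (1.28, adjusted p = 0.0227). It also passed at 2000 to 10000 UMIs (1.42, adjusted p = 0.0219), for HIGD1B barcodes without MYH11 and ACTG2 (1.91, adjusted p = 0.00289) and with no filter on low counts (0.96, adjusted p = 7.63e-10). Against the PDGFRA DCN barcodes RGS5 was higher in 8 of 8 libraries (2.45 ± 0.38, adjusted p = 0.00077).

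CSPG4, the NG2 proteoglycan, had 37.7 to 240.1 CPM in the HIGD1B barcodes and 61.4 to 157 CPM in the MYH11 ACTG2 barcodes (0.36 ± 0.20, adjusted p = 0.312). CD248, a stromal membrane protein also called endosialin, had 152, 243 and 352 CPM against 25.9, 44.4 and 84.6 CPM, with no overlap (2.40 ± 0.19, adjusted p = 4.41e-05). Against the PDGFRA DCN barcodes CD248 did not pass (1.05 ± 0.47, adjusted p = 0.145). SPARCL1, a secreted matricellular protein, was the lower one among the identity genes that passed the filter, at 835 to 1833 CPM against 1458 to 3764 CPM (-1.01 ± 0.17, adjusted p = 0.00219). FOXS1, a forkhead factor of mural cells, was higher by 1.69 ± 0.31 (adjusted p = 0.00371).

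Contractile genes placed the HIGD1B barcodes between the other classes. Of 32 listed contraction genes 26 were tested, of which 1 was higher and 19 lower than in the MYH11 ACTG2 barcodes (median -0.84). The same number were tested against the PDGFRA DCN barcodes, and 17 were higher and 1 lower (median 1.12). With PDGFRA barcodes removed 22 of 27 were lower than in the MYH11 ACTG2 barcodes. The gate on MYH11 and ACTG2 chose barcodes for contractile genes, so the first count is not independent of it.

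ACTA2, smooth muscle actin, had 1355, 2322 and 4447 CPM in the HIGD1B barcodes, 3959, 5402 and 10353 CPM in the MYH11 ACTG2 barcodes and 144 to 1098 CPM in the PDGFRA DCN barcodes of the same 7 libraries. The 3 ranges touched only where the jejunum members reached into the contractile range. The log2 difference was -1.27 ± 0.15 to the MYH11 ACTG2 barcodes (adjusted p = 0.000282) and 2.53 ± 0.57 to the PDGFRA DCN barcodes (adjusted p = 0.00742).

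TPM1 and TPM2, tropomyosins, were lower than in the MYH11 ACTG2 barcodes by -1.03 ± 0.10 and -1.09 ± 0.12 (adjusted p = 7.71e-05 and 0.000282). MYLK, the myosin light chain kinase, was lower, at -1.66 ± 0.26 (adjusted p = 0.00169), and MYL9, the regulatory light chain, by -0.50 ± 0.12 (adjusted p = 0.0187). CALD1, caldesmon, was the contraction gene that was higher, at 1620 to 3542 CPM against 1347 to 2666 CPM (0.45 ± 0.13, adjusted p = 0.0445). That call was lost without scaling factors (0.40, adjusted p = 0.0623) and when any of 6 of the 7 libraries was left out.

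DES and CNN1 had the widest gaps among the contraction genes named. DES had 0, 34.1 and 225 CPM in the HIGD1B barcodes and 31.1, 923 and 1571 CPM in the MYH11 ACTG2 barcodes, a difference of -4.04 ± 0.29 (adjusted p = 1.91e-05). CNN1, calponin, had 0, 62.4 and 288 CPM against 139, 642 and 1516 CPM (-3.75 ± 0.46, adjusted p = 0.000402). Of the 7 libraries, the cecum members were highest for both genes. FLNA, filamin A, and SYNM, an intermediate filament gene, were lower by -0.80 ± 0.15 and -0.62 ± 0.14 (adjusted p = 0.00503 and 0.0121), the latter in 6 of 7 libraries. CKB, the brain form of creatine kinase, was lower, at -2.33 ± 0.20 (adjusted p = 4.98e-05).

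Factors of visceral mesenchyme were lower than in the MYH11 ACTG2 barcodes as well. That class held PDGFRA in 40.5% and DES in 29.7% of its barcodes over the 8 libraries, and the HIGD1B barcodes held them in 6.89% and 10.1%. The differences are thus to a mixed class and not to muscle alone. Of 7 tested genes among receptors and regulators of visceral muscle, 0 were higher and 5 lower (median -1.31), and the regulators FOXF1, FOXF2, BMP4, BMP5 and HHIP were those 5. FOXF2 and FOXF1, forkhead factors that pattern the gut mesenchyme, were lower, at -1.30 ± 0.29 and -0.69 ± 0.13 (adjusted p = 0.012 and 0.00529). BMP4, a ligand made beneath the epithelium, had 79.5, 111 and 851 CPM against 107, 1020 and 1470 CPM (-1.98 ± 0.39, adjusted p = 0.00626). HHIP, which binds hedgehog ligands and is induced by them, had 0 CPM in 4 of the 7 libraries and 188 CPM in the cecum members, against 14.3 to 418 CPM (-3.44 ± 0.64, adjusted p = 0.00415).

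PDGFRA itself had 6.58, 56.4 and 951 CPM in the HIGD1B barcodes and 29.6, 682 and 994 CPM in the MYH11 ACTG2 barcodes (-2.43 ± 0.53, adjusted p = 0.00989). It was 0.32 (adjusted p = 0.883) with DES required in the MYH11 ACTG2 barcodes, which left 5 libraries without duodenum and colon. For HIGD1B barcodes with at least 2 UMIs of the gene it was -6.03 (adjusted p = 1.82e-05) on 4 libraries without cecum, colon and rectum. These alternatives changed gate and libraries at once. The difference was -3.39 (adjusted p = 0.000491) without cecum and rectum. NRG1, a ligand of the ERBB receptors, and SOSTDC1, a BMP and WNT antagonist, were lower, at -3.43 ± 0.57 and -3.40 ± 0.53 (adjusted p = 0.00226 and 0.00158). The symbol NRG1 stands under more than 1 gene identifier in the files, and the value is that of ENSBTAG00000004150.

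Enzymes of the nitric oxide and cyclic nucleotide route were mostly higher. Of 8 tested genes 6 were higher and 1 lower than in the MYH11 ACTG2 barcodes (median 0.98), and against the PDGFRA DCN barcodes 6 of 9 were higher and 1 lower (median 1.08). With PDGFRA barcodes removed 3 of 7 were higher and 0 lower in the first contrast. GUCY1A1 and GUCY1B1 encode the subunits of soluble guanylate cyclase, the receptor for nitric oxide. GUCY1B1 had 138, 318 and 435 CPM against 49.7, 82.9 and 224 CPM, higher in 7 of 7 libraries (1.73 ± 0.16, adjusted p = 7.71e-05). GUCY1A1 was higher by 1.37 ± 0.13 (adjusted p = 7.71e-05), with 100.1 to 293 CPM against 50.0 to 143 CPM.

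Further genes of this route differed by smaller amounts. PRKG1, the cGMP-dependent kinase, was higher by 0.45 ± 0.13 (adjusted p = 0.0408), and PDE5A, which breaks down cGMP, by 0.93 ± 0.22 (adjusted p = 0.0152). PDE1A, a calcium-dependent phosphodiesterase, was the lower gene (-0.90 ± 0.22, adjusted p = 0.0194). The adenylate cyclases ADCY3 and ADCY6 were higher by 1.04 ± 0.21 and 1.23 ± 0.20 (adjusted p = 0.00738 and 0.00207).

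Receptors for vasoactive signals were split. Of 33 listed, 9 were tested, 2 of them higher and 2 lower (median -0.05). EDNRA, the endothelin receptor of vascular muscle, had 282, 395 and 494 CPM in the HIGD1B barcodes and 164, 255 and 329 CPM in the MYH11 ACTG2 barcodes (0.65 ± 0.11, adjusted p = 0.0033). EDNRB, the other endothelin receptor, had 9.87, 18.8 and 119 CPM against 0.801, 151 and 292 CPM and was lower in 6 of 7 libraries, the abomasum being the exception (-2.15 ± 0.41, adjusted p = 0.0051).

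RAMP1, the partner protein of the receptor for calcitonin gene-related peptide, had 188, 607 and 1105 CPM against 14.3, 183 and 582 CPM (2.19 ± 0.50, adjusted p = 0.013). Small intestinal members carried the highest RAMP1 levels. CALCRL, the receptor that pairs with it, was low at 10.4 to 30.7 CPM. PTGER4, a prostaglandin E2 receptor, was lower, at -1.48 ± 0.30 (adjusted p = 0.00669).

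**Figure D3:**
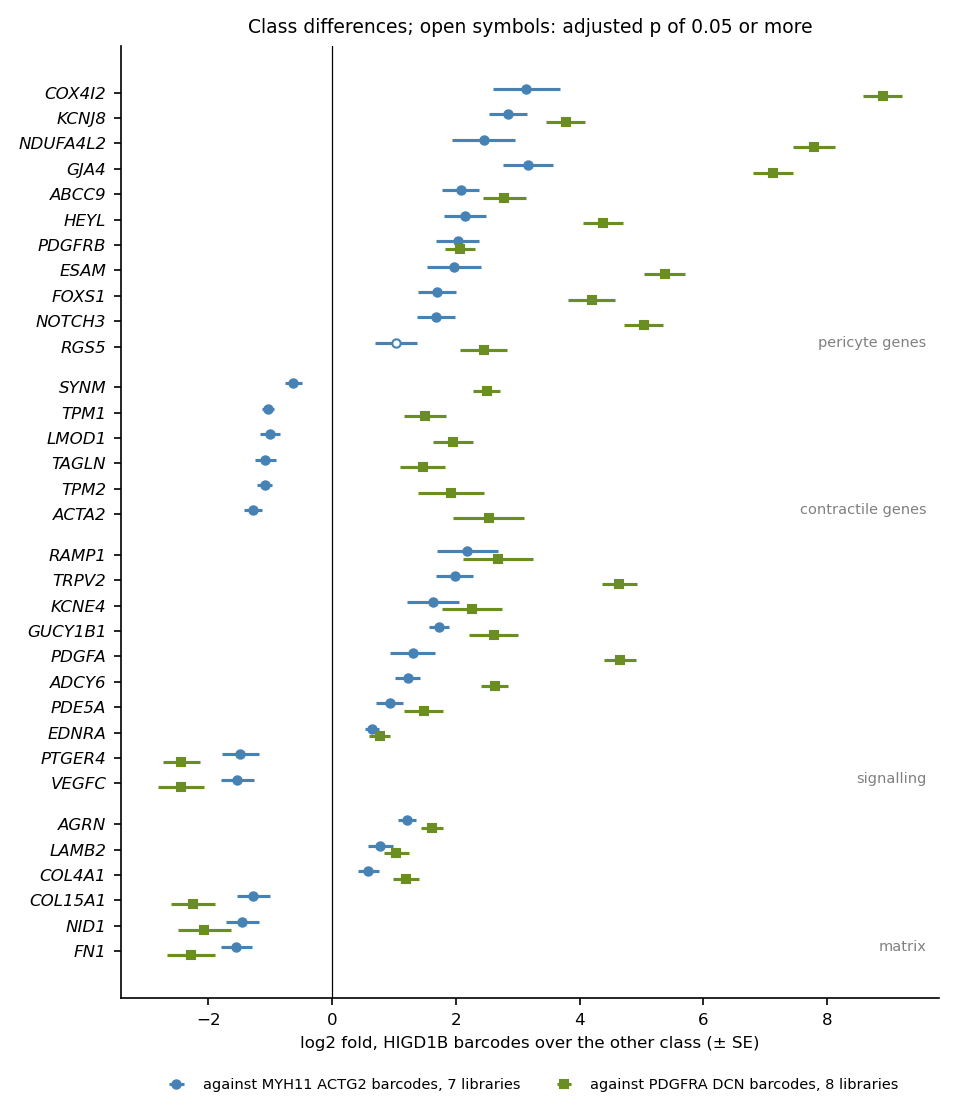
Log2 differences with SE (horizontal axis) of genes grouped by role (vertical axis), HIGD1B barcodes over MYH11 ACTG2 barcodes in 7 libraries (circles) and over PDGFRA DCN barcodes in 8 libraries (squares), with an open symbol where the adjusted p was 0.05 or more. The pericyte genes shown lie right of 0 in both contrasts. They are a choice from the identity list that leaves out, among others, SPARCL1 (-1.01 in the first contrast) and CSPG4 (0.36, not called). ACTA2 lies left of 0 in the first contrast (-1.27) and right of 0 in the second (2.53).

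Of 27 listed ion channel genes of mural cells 9 were tested, with KCNJ8, ABCC9, TRPV2 and KCNE4 higher and KCNK3 lower (median 0.67). KCNK17, a background potassium channel outside that list, ranked high in both contrasts, at 31.3, 158 and 321 CPM against 3.14, 20.7 and 39.8 CPM (3.37 ± 0.24, adjusted p = 1.91e-05) and 6.66 ± 0.43 against the PDGFRA DCN barcodes (adjusted p = 6.13e-07). The ranges of the 2 contractile classes overlapped only through the cecum members. KCNK3, another background channel, was lower (-2.35 ± 0.40, adjusted p = 0.00239). TRPV2, a cation channel, had 37.5 to 88.8 CPM against 2.27 to 32.4 CPM, without overlap (1.98 ± 0.30, adjusted p = 0.00126). KCNE4, a potassium channel beta subunit, was higher by 1.63 ± 0.42 (adjusted p = 0.0251). KCNH2, the ERG potassium channel, also outside the list, was at 0 to 11.3 CPM against 22.5 to 56.9 CPM (-2.89 ± 0.35, adjusted p = 0.000324).

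Among 6 tested members of the RGS family, 1 was higher and 1 lower. RGS16 had 25.0, 154 and 297 CPM against 2.07, 5.71 and 63.8 CPM (3.22 ± 0.40, adjusted p = 0.000402), with jejunum and ileum highest in the contrast class. RGS4 was lower in 6 of 7 libraries, at 0, 10.4 and 37.5 CPM against 5.61, 101 and 243 CPM (-2.99 ± 0.40, adjusted p = 0.000625).

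PDGF, angiopoietin and VEGF genes were examined as the exchange with endothelium. Of 9 tested, 4 were higher and 2 lower than in the MYH11 ACTG2 barcodes. ANGPT2, the angiopoietin linked to vessel remodelling, had 18.8, 99.8 and 138 CPM against 5.12, 19.4 and 43.3 CPM (2.11 ± 0.29, adjusted p = 0.000865), and at most 6.66 CPM in the PDGFRA DCN barcodes. PDGFA, a PDGF ligand, was higher by 1.30 ± 0.37 (adjusted p = 0.0397) and by 4.65 ± 0.26 in the fibroblast contrast (adjusted p = 2.38e-07). Without cecum and rectum PDGFA was at 0.98 in the first contrast (adjusted p = 0.101). NRP1, a VEGF co-receptor, was higher by 1.07 ± 0.21 (adjusted p = 0.00564), and VEGFC, a lymphatic growth factor, was lower, at -1.53 ± 0.27 (adjusted p = 0.00305).

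GJA4, the connexin 37 gene of vascular gap junctions, had 119, 371 and 850 CPM in the HIGD1B barcodes and 2.85, 55.7 and 144 CPM in the MYH11 ACTG2 barcodes. Levels were highest in abomasum and duodenum members and the difference was 3.17 ± 0.40 (adjusted p = 0.000474). In the PDGFRA DCN barcodes GJA4 stayed at or below 7.25 CPM (7.12 ± 0.32, adjusted p = 3.36e-08). ESAM, an adhesion molecule of vessel walls that also stands on the endothelial list, was higher by 1.98 ± 0.44 and 5.37 ± 0.33 in the 2 contrasts (adjusted p = 0.0112 and 5.39e-07).

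Genes of the basement membrane split by molecule. Of 14 tested against the MYH11 ACTG2 barcodes, 4 were higher and 5 lower (median -0.06), and of 15 against the PDGFRA DCN barcodes 4 were higher and 7 lower (median -0.30). AGRN, the heparan sulfate proteoglycan agrin, had 87.6, 125 and 169 CPM against 41.4, 54.5 and 70.9 CPM, without overlap (1.21 ± 0.14, adjusted p = 0.000283). COL4A1, the main chain of collagen IV, had 1679, 2120 and 2999 CPM against 987, 1519 and 2147 CPM (0.59 ± 0.17, adjusted p = 0.0418). LAMB2, the laminin beta 2 chain of vessel walls, was higher by 0.78 ± 0.20 (adjusted p = 0.0255), while LAMB1, the beta 1 chain, was lower, at -0.69 ± 0.15 (adjusted p = 0.00968).

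NID1, nidogen, had 26.3, 50.1 and 331 CPM against 139, 207 and 367 CPM, with cecum and rectum members highest (-1.45 ± 0.27, adjusted p = 0.00431). COL4A5 and COL15A1 were lower, at -1.63 ± 0.29 and -1.27 ± 0.26 (adjusted p = 0.00357 and 0.0075). TINAGL1, a matrix protein of vessel walls, stood at 81.3 to 706 CPM in the HIGD1B barcodes and at 0 to 13.5 CPM in the PDGFRA DCN barcodes (6.10 ± 0.26, adjusted p = 2.81e-08). ITGA7, a laminin-binding integrin, was at 50.0 to 266 CPM against 0 to 11.3 CPM over the 8 libraries (6.06 ± 0.34, adjusted p = 2.32e-07).

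Interstitial matrix genes were low next to the fibroblast class. Of 23 tested, 0 were higher and 17 lower than in the PDGFRA DCN barcodes (median -1.87), and against the MYH11 ACTG2 barcodes 0 of 22 were higher and 3 lower (median -0.16), a share near the 12.3% of all genes called. COL1A2, a chain of collagen I, had 686 to 1098 CPM in the HIGD1B barcodes of 6 libraries but 6968 CPM in the cecum and 5148 CPM in the rectum, against 2211 to 8280.5 CPM in the PDGFRA DCN barcodes. The difference was -1.76 ± 0.33 (adjusted p = 0.00229), and the fibroblast class stood at 8280.5 CPM in the cecum and 7303 CPM in the rectum. The gate on PDGFRA and DCN chose barcodes for fibroblast genes, so the count against that class is not independent of it. TNC, tenascin C, had a difference to the MYH11 ACTG2 barcodes of -2.17 ± 0.36 (adjusted p = 0.00209).

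Of 18 TGF beta and BMP pathway genes, 3 were higher and 3 lower (median -0.07). TGFB2, a TGF beta ligand, was higher by 1.34 ± 0.30 in 6 of 7 libraries (adjusted p = 0.0125), and ACVRL1, a BMP receptor of vessels, by 1.07 ± 0.20 (adjusted p = 0.00484). LTBP1, which holds latent TGF beta in the matrix, had 29.6, 82.9 and 650.5 CPM against 77.7, 921 and 1205 CPM (-1.76 ± 0.30, adjusted p = 0.00239).

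Among 13 tested cytokine and chemokine genes 2 were higher and 2 lower. IL34, a ligand of the macrophage receptor CSF1R, had 18.8, 60.3 and 145 CPM against 5.69, 16.4 and 24.0 CPM and was higher in 7 of 7 libraries (2.01 ± 0.20, adjusted p = 0.000141). ICAM1, a leukocyte adhesion molecule, was higher by 0.95 ± 0.22 (adjusted p = 0.016). CCL2, a monocyte attractant, spanned 25.0 to 2368 CPM in the HIGD1B barcodes and did not pass (1.81 ± 0.60, adjusted p = 0.0751). CXCL14, an epithelial and stromal chemokine, had 36.2, 155 and 1964 CPM against 1110, 1503 and 3528 CPM (-2.75 ± 0.59, adjusted p = 0.0094), with the cecum members again highest.

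Lipid genes gave 2 higher and 1 lower of 9 tested. FABP5, a fatty acid binding protein, had 138, 331 and 487 CPM against 21.7, 106 and 347 CPM (1.83 ± 0.37, adjusted p = 0.00712). APOE, an apolipoprotein, was higher than in the MYH11 ACTG2 barcodes (1.09 ± 0.25, adjusted p = 0.0152) and stood at -0.26 ± 0.45 against the PDGFRA DCN barcodes (adjusted p = 0.775). ALDH1A2, which makes retinoic acid, was lower, at -1.72 ± 0.33 (adjusted p = 0.00503).

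Of 54 positional transcription factors 11 were tested, with 3 higher and 2 lower. The higher ones were HOXB2 (0.80 ± 0.22, adjusted p = 0.0353), TBX3 (1.00 ± 0.26, adjusted p = 0.0254) and MEIS1 (0.57 ± 0.16, adjusted p = 0.0384). NR2F2, a nuclear receptor of veins and mesenchyme, was added after its values were seen. It had 225, 542 and 688 CPM against 43.2, 164 and 279 CPM (1.94 ± 0.23, adjusted p = 0.000337) and 3.07 ± 0.21 against the PDGFRA DCN barcodes (adjusted p = 1.06e-06).

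Among genes not described above, the widest differences began with FAM162B, which was higher by 4.60 ± 0.31 (adjusted p = 1.91e-05). It had 16.4, 200.1 and 376 CPM in the HIGD1B barcodes and 0, 5.71 and 33.2 CPM in the MYH11 ACTG2 barcodes, with the duodenum members lowest. In the PDGFRA DCN barcodes it was at most 1.60 CPM. C7, a complement component that stands on the fibroblast marker list, had 211 to 738 CPM against 20.8 to 201 CPM, without overlap (2.86 ± 0.31, adjusted p = 0.000219). Of 12 tested genes of that list, 2 were higher and 1 lower than in the MYH11 ACTG2 barcodes, where 12.3% of all genes were called. The PDGFRA DCN barcodes held 109 to 2466 CPM of C7. ADGRF5, an adhesion G protein-coupled receptor, was higher by 2.67 ± 0.32 (adjusted p = 0.000324).

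The same rule named GPAT2, a glycerol phosphate acyltransferase (2.91 ± 0.25), TNFRSF21, a death receptor (2.80 ± 0.34), CNTN4, a contactin (2.74 ± 0.40), and ITIH5, an inter-alpha-trypsin inhibitor chain (2.61 ± 0.27). Their adjusted p-values were 4.98e-05, 0.000324, 0.0012 and 0.00016. The lower genes included IL1RL1, the interleukin 33 receptor (-3.71 ± 0.45), CDC42EP3, a CDC42 effector (-3.21 ± 0.34), TNFRSF6B, a decoy receptor (-2.94 ± 0.40), PLEKHB1 (-2.88 ± 0.38), the neurotrophin NTF3 (-2.87 ± 0.32), and PTGES, a prostaglandin E synthase (-2.85 ± 0.65). Their adjusted p-values ran from 0.000169 to 0.0133.

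S100B, a calcium-binding protein of the glial list, was higher than in the MYH11 ACTG2 barcodes, at 43.8 to 174 CPM against 12.3 to 54.8 CPM (2.05 ± 0.21, adjusted p = 0.000144). The glial gene CDH19 was at 0 in the same barcodes, and NCAM1, also of that list, was lower (-1.21 ± 0.23, adjusted p = 0.00454). Another 2 genes at high level were added after their values were seen. IGF2, an imprinted growth factor, had 826, 4216 and 5306 CPM against 132, 731 and 4425 CPM (2.05 ± 0.46, adjusted p = 0.0123). It did not pass with at least 2 HIGD1B UMIs (0.84, adjusted p = 0.305) or without PDGFRA and DCN barcodes (1.61, adjusted p = 0.151). ENSBTAG00000054745, which has no symbol in the files, stood at 926 to 4297 CPM and was higher by 2.37 ± 0.46 (adjusted p = 0.00557).

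Removing PDGFRA barcodes from both classes also dropped cecum and colon, so that 5 of 7 libraries remained, and the parts of these changes were not told apart. PDGFRB was then called, at 1.95 (adjusted p = 0.0397), while GJA4 was at 2.37 (adjusted p = 0.0539) and RAMP1 at 1.17 (adjusted p = 0.322). IGF2 was then at 0.89 (adjusted p = 0.607). SPARCL1 was at -0.95 (adjusted p = 0.0579).

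Leaving out cecum and rectum changed 13 calls among the named genes of this contrast. CSPG4 then passed, at 0.59 (adjusted p = 0.0289), as did RGS5. Of the genes described above MYL9 (-0.52, adjusted p = 0.0508), PRKG1 (0.30, adjusted p = 0.169), PDE5A (0.78, adjusted p = 0.0584) and KCNE4 (1.38, adjusted p = 0.0726) did not pass. Neither did PDGFA, COL4A1 (0.64, adjusted p = 0.0946), LAMB2 (0.54, adjusted p = 0.141), HOXB2 (0.64, adjusted p = 0.0514) and MEIS1 (0.62, adjusted p = 0.0618), and the others were THY1 (0.85, adjusted p = 0.0679) and ELOVL6 (-0.87, adjusted p = 0.0515). In the fibroblast contrast CD248 passed, at 1.60 (adjusted p = 0.0459), and TPM2 (2.02, adjusted p = 0.0504) and TBX3 (1.57, adjusted p = 0.0687) did not.

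Against the PDGFRA DCN barcodes the leading higher genes outside those above were MYL4, a myosin light chain (5.51 ± 0.27), GAL, the neuropeptide galanin (5.44 ± 0.40), PLN, which restrains the sarcoplasmic calcium pump (5.44 ± 0.35), and TESC, a calcium-binding protein (5.30 ± 0.35). Their adjusted p-values were 6.76e-08, 2.08e-06, 6.66e-07 and 6.85e-07. GAL had 75.1 to 513 CPM in the HIGD1B barcodes of all 8 libraries and at most 11.8 CPM in the fibroblast class. PLN was shared with the MYH11 ACTG2 barcodes, at 68.8 to 387 CPM against 47.4 to 493 CPM in the 7 libraries.

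The leading lower genes of that contrast were SAA3, an acute phase protein (-5.02 ± 0.63), CXCL14 (-4.63 ± 0.72) and PTGES (-4.03 ± 0.55). They were followed by MFAP5, a microfibril protein (-3.86 ± 0.99), and PCDH7, a protocadherin (-3.47 ± 0.52). In this order the adjusted p-values were 0.000152, 0.000706, 0.000304, 0.0139 and 0.000596. Next came TMEM190 (-3.29 ± 0.42) and NUPR1 (-3.25 ± 0.58), with adjusted p of 0.000188 and 0.00182. Further ones included DLK1, a NOTCH ligand-like protein (-3.16 ± 0.83), C3, the central complement protein (-3.07 ± 0.36), and FBLN1, fibulin 1 (-3.05 ± 0.47). Their adjusted p-values were 0.0163, 0.000105 and 0.000719. MFAP5 was at 0 in 5 of the 8 libraries of HIGD1B barcodes but at 1351 CPM in the cecum and 945 CPM in the rectum, and DLK1 reached 957 and 256 CPM there.

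Of 22 immediate early and stress genes 2 were higher and 1 lower than in the MYH11 ACTG2 barcodes, a share near the 12.3% of all genes, with a median of 0.49. KLF6, a zinc finger factor, and MYC were the higher ones, by 1.13 ± 0.18 and 1.57 ± 0.23 (adjusted p = 0.00209 and 0.00125). Without PDGFRA barcodes they were at 0.74 and 0.84 (adjusted p = 0.262 and 0.219). Of 13 proliferation genes 1 was higher, TPX2, a spindle protein (0.97 ± 0.25, adjusted p = 0.0248). The other 12 were not called and the median was -0.28, where 6.18% of all genes were called higher.

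After each barcode was thinned to 1000 UMIs, 34.0% ± 9.5 (SD, n = 7 libraries) of the HIGD1B barcodes and 33.8% ± 7.6 of the MYH11 ACTG2 barcodes held a proliferation gene UMI. The difference of 0.22 points had an exact two-sided sign-flip permutation p of 0.984, and 0.0156 is the smallest p that 7 libraries allow. Detected genes per barcode were 596 ± 12.9 and 612 ± 25.8, lower in the HIGD1B barcodes in 6 of 7 libraries (exact permutation p = 0.0625, adjusted p = 0.164 over 3 measures). Without thinning they were 1809 and 2109, at unequal depths. Mitochondrial UMIs made up 6.54% ± 1.89 and 5.80% ± 1.49, higher in 6 of 7 libraries (exact permutation p = 0.109, adjusted p = 0.164).

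The HIGD1B barcodes of the small intestine (duodenum, jejunum and ileum) were compared with those of the large intestine (cecum, colon and rectum), 3 libraries each. Of 4074 genes tested 15 (0.368%) differed, 2 (0.0491%) higher and 13 (0.319%) lower in the small intestine. The 3 large intestinal libraries held 24, 21 and 40 members, and on simulated counts this test recovered 12 of 100 genes changed 2-fold and 80 of 100 changed 4-fold. The simulation gave all genes the same dispersion and no differences between tissues of a region. It therefore does not give the power on the measured counts. Each region is 3 tissues and not 3 samples of 1 tissue.

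NES, nestin, an intermediate filament of immature mural and neural cells, was higher in the small intestine. It had 447, 442 and 315 CPM in duodenum, jejunum and ileum and 50.0, 131 and 97.9 CPM in cecum, colon and rectum, without overlap (2.06 ± 0.32, adjusted p = 0.0373). The difference was 1.77 to 2.28 when 1 library was left out, but the call was lost with any of them but the colon left out, with doublets removed (2.29, adjusted p = 0.0502) and with at least 2 HIGD1B UMIs (2.24, adjusted p = 0.139). The MYH11 ACTG2 barcodes had 139, 152 and 225 CPM and 125, 162 and 119 CPM. REG3G, an antimicrobial lectin of the epithelium, was also higher (adjusted p = 0.0248), at 59.2 to 73.6 CPM against 0 in the large intestinal libraries, and lost its call with doublets removed and without duodenum, jejunum, ileum or cecum (adjusted p = 0.0502 to 0.124). It stood at 40.9 to 86.8 CPM in the MYH11 ACTG2 barcodes, at 73.7 to 76.9 CPM in the PDGFRA DCN barcodes and at 47.3 to 71.6 CPM in the barcodes with PECAM1 and CDH5 of the same small intestinal libraries.

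The 13 genes higher in the large intestine included matrix genes of fibroblasts. TNC had 0 to 14 CPM in the small intestine and 238, 131 and 97.9 CPM in the large intestine (-4.44 ± 0.55, adjusted p = 0.0248). LTBP1 had 29.6, 73.0 and 34.1 CPM against 650.5, 361 and 271 CPM (-3.14 ± 0.43, adjusted p = 0.0248). DCN, decorin, FBLN1, MFAP2, a microfibril protein, and HTRA1, a secreted protease, were lower in the small intestine, at -3.99 ± 0.60, -4.18 ± 0.64, -3.68 ± 0.48 and -2.81 ± 0.32 (adjusted p = 0.0373, 0.0373, 0.0248 and 0.0181). All 6 lost their call when the duodenum, the jejunum, the ileum or the cecum was left out, DCN, FBLN1 and MFAP2 also with doublets removed, and DCN and FBLN1 also without the rectum. The genes called lower then numbered 1, 1, 2 and 1, against 13 with all libraries, and 0 with at least 2 HIGD1B UMIs. Of the fibroblast marker list 2 of 12 tested genes were lower and 0 higher, and of the interstitial matrix genes 3 of 17, where 0.368% of all genes were called. The fibroblast markers summed to 5134 to 6870 CPM in the small intestine and to 11095 to 42857 CPM in the large intestine. Without PDGFRA and DCN barcodes 2 genes were higher and 11 lower, and all 13 of the named genes that could be tested kept their side of the threshold. TNC and FBLN1 were not among the genes tested there.

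CXCL9, an interferon-induced chemokine, had 0, 2.65 and 2.00 CPM against 319, 223 and 192 CPM (-6.72 ± 0.42, adjusted p = 0.000224). The MYH11 ACTG2 barcodes showed the same split, at 4.09 to 54.1 CPM and 247 to 914 CPM, and so did the PDGFRA DCN barcodes, at 8.39 to 57.7 CPM and 437 to 782 CPM. SPINK1, a trypsin inhibitor of epithelium, had 3.98 to 20.0 CPM in the small and 82.8 to 144 CPM in the large intestinal members, and was higher in the large intestine in the other 2 classes as well (-3.33 ± 0.54, adjusted p = 0.0471). SPINK1 lost its call with doublets removed and with any library but the colon left out.

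Of 18 pericyte identity genes tested between the regions, 0 passed, where 0.368% of all genes did, so the count says nothing about these genes. Their median was 0.84, beside 0.0013 for all genes. COX4I2 was at 904, 633 and 679.6 CPM in the small and 113, 691 and 222 CPM in the large intestine (1.10 ± 0.51, adjusted p = 0.341). RGS5 was at 1335, 1067 and 1052 CPM and 563, 1021 and 486 CPM (0.70 ± 0.28, adjusted p = 0.276). The colon members lay within the small intestinal range for COX4I2 and just below it for RGS5, and the cecum and rectum members were lower for both. Without the colon library, COX4I2 (2.00, adjusted p = 0.0141), NDUFA4L2 (2.45, adjusted p = 0.0345) and RGS5 (1.04, adjusted p = 0.0357) passed, leaving cecum and rectum alone as the large intestine. Without PDGFRA and DCN barcodes they were at 0.58, 0.86 and 0.14 (adjusted p = 0.646, 0.621 and 0.957), and with at least 2 HIGD1B UMIs at 0.35, 0.64 and 0.68 (adjusted p = 0.904, 0.726 and 0.647).

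**Figure D4:**
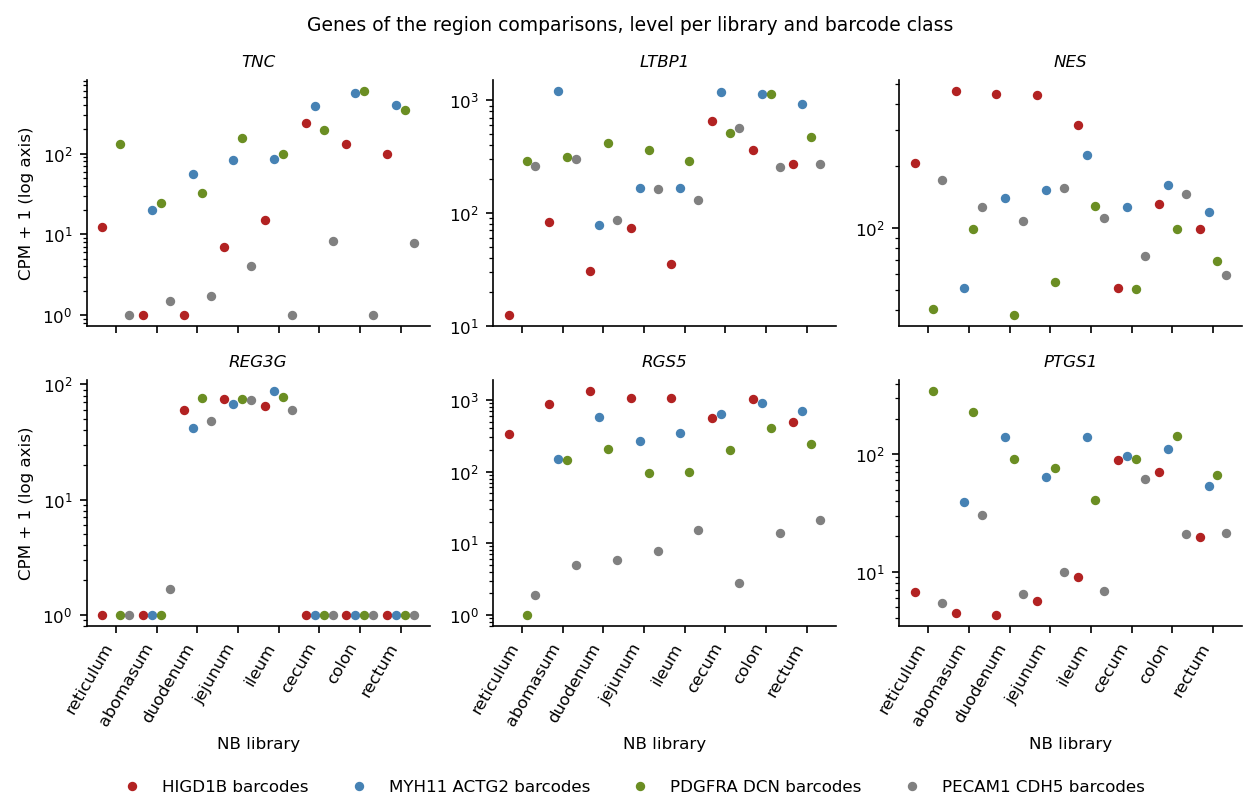
Levels of 6 genes of the region comparisons (CPM + 1, log axis) by NB library for the HIGD1B barcodes and 3 other classes, 1 point per class and library except MYH11 ACTG2 in the reticulum, among them barcodes with PECAM1 and CDH5, which mark endothelium. NES lies at 315 to 447 CPM in the HIGD1B barcodes of the small intestine and at 50.0 to 131 CPM in those of the large intestine, and REG3G is at 0 in all 4 classes of the large intestine.

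The region difference of the HIGD1B barcodes was also set against that of the MYH11 ACTG2 barcodes by an interaction term, in which 9 (0.134%) of 6734 genes passed, 4 (0.0594%) with a positive and 5 (0.0743%) with a negative term. RGS5 had a positive term. In the MYH11 ACTG2 barcodes it had 579, 266 and 349.6 CPM in the small and 641, 908 and 700.1 CPM in the large intestine, so its region differences in the 2 classes lay 1.81 ± 0.24 apart (log2, adjusted p = 0.0164). Without the ileum, when 0 positive terms passed, it was 1.82 (adjusted p = 0.0549), and without the rectum 1.65 (adjusted p = 0.0708). ANGPTL1, an angiopoietin-like protein, had 125, 126 and 171 CPM against 11.4, 2.07 and 10.3 CPM in the MYH11 ACTG2 barcodes and 32.9, 38.5 and 58.1 CPM against 269, 15.4 and 79.1 CPM in the HIGD1B barcodes (-5.43 ± 0.41, adjusted p = 0.000242). COL8A1, a short-chain collagen, was at 375 CPM in cecum and 418 CPM in rectum members and at most 0.663 CPM in the other intestinal ones (-7.99 ± 0.64, adjusted p = 0.000595). The PDGFRA DCN barcodes of those libraries had 332 and 655 CPM. COL8A1 lost its call without the jejunum (adjusted p = 0.0545). PTGS1, a cyclooxygenase, gave -3.42 ± 0.48 (adjusted p = 0.0255), and did not pass without duodenum, ileum or cecum (adjusted p = 0.0527, 0.0662 and 0.0601). COX4I2 did not pass (-3.40 ± 0.62, adjusted p = 0.0642), but did without PDGFRA and DCN barcodes (-3.47, adjusted p = 0.0259), without the ileum (-3.88, adjusted p = 0.0401), without the colon (-3.57, adjusted p = 0.0424) and by DESeq2 (-3.32, adjusted p = 0.00339).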

How the data were processed

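Tissues of NB calves and of 1 AD cow were profiled with 10x Genomics 3′ single-cell libraries. The authors aligned the reads to ARS-UCD1.2 with Cell Ranger 3.1.0 and deposited raw UMI counts per gene and barcode, 1 matrix per library with 27270 genes and no cell annotation. The annotation release is not given in the sources used here. Free RNA was not removed, so a single HIGD1B UMI can come from another cell, and 3′ counts cannot separate isoforms.

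Barcodes with 500 to 4000 genes and under 50000 UMIs were kept, the limits of the study. Its limit of 40% mitochondrial UMIs was tried as an alternative. Doublets were scored with Scrublet in scanpy 1.11.5 (2 simulated doublets per barcode, 30 principal components), and the highest 0.8% per 1000 barcodes were counted as likely doublets and left out only as an alternative. The members and the gene lists were chosen with earlier results of these data known.

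UMI counts were summed per class and library where both classes had at least 20 barcodes, and tested with edgeR 4.0.16 in R 4.3.3 (quasi-likelihood test, TMM scaling, filterByExpr, library as block, Benjamini-Hochberg adjustment). The region comparison had region as its only term, and the interaction was fitted on 6 intestinal libraries with library as block. Gate genes (HIGD1B, MYH11, ACTG2, PECAM1, PTPRC, EPCAM, and in the fibroblast contrast PDGFRA and DCN) were left out. CPM are these sums over their totals, and ratios within a library were taken after adding 5 CPM. Measures per barcode were compared after thinning to 1000 UMIs with an exact two-sided sign-flip permutation test over libraries. Python 3.11.15, NumPy 2.4.6, SciPy 1.17.1, pandas 2.3.3, anndata 0.12.19 and matplotlib 3.10.9 were used.

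The text names genes of the lists that passed the filter and, per direction, the 12 called genes with the largest difference and the same direction in every library, or 8 in the region comparison where the groups do not overlap, and the 5 smallest p of the interaction. A gene outside this rule is named as chosen after its values were seen. Alternatives were DESeq2 1.42.0, no TMM, no filter, at least 2 HIGD1B UMIs, at least 2 UMIs of MYH11 and ACTG2, HIGD1B barcodes without MYH11 and ACTG2, 2000 to 10000 UMIs, doublets removed, 500 UMIs or no thinning, and each library left out. Added after seeing the data were leaving out barcodes with PDGFRA and DCN, all barcodes with PDGFRA, cecum and rectum together, and requiring DES in the MYH11 ACTG2 barcodes. For the interaction only DESeq2 was planned, and no TMM and each library left out were added after seeing the data. On counts simulated from these sums, the test recovered 79 of 100 genes changed 2-fold and 92 of 100 changed 4-fold in the MYH11 ACTG2 contrast, and 79 and 89 in the fibroblast contrast. All simulations used 1 common dispersion for all genes and the same mean in every library apart from the added change, so they do not give the power on the measured counts.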

Additional observations from a re-analysis of the deposited data

Results flagged for a closer look

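The share of HIGD1B barcodes in the jejunum, 2.83%, lay far above those of the other 7 libraries, whose median was 0.692%. Of 49 sets of per-library values examined in this way 3 held a library far from the rest, and chance gives about 1 in 20. ITIH5 had a log2 ratio of 3.95 to the MYH11 ACTG2 barcodes in the duodenum, where the other libraries had a median of 2.01. PCDH7 had a log2 ratio of -0.55 to the PDGFRA DCN barcodes in the rectum, against a median of -2.82 in the others.

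The difference between small and large intestine was not the same in HIGD1B and MYH11 ACTG2 barcodes for 5 genes that were named, by edgeR's quasi-likelihood test of the interaction with Benjamini-Hochberg adjustment. It lay -5.43 apart on the log2 scale for ANGPTL1 (adjusted p = 0.000242), -7.99 for COL8A1 (adjusted p = 0.000595), 1.81 for RGS5 (adjusted p = 0.0164) and -3.42 for PTGS1 (adjusted p = 0.0255). ENSBTAG00000001219 gave 7.77 (adjusted p = 0.0164), and among the HIGD1B barcodes it was high in the ileum alone, at 3809 CPM. Without the ileum neither RGS5 (1.82, adjusted p = 0.0549) nor ENSBTAG00000001219 (1.94, adjusted p = 1) passed, and the latter did not pass without the cecum, without PDGFRA and DCN barcodes or by DESeq2.

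Libraries outside the rule held HIGD1B barcodes of the same kind of gate. The NB omasum had 142, which carried 766 CPM of RGS5, 268 of NOTCH3, 411 of COX4I2, 298 of NDUFA4L2, 420.0 of KCNJ8, 3191 of ACTA2 and 1138 of COL1A2. The AD jejunum had 10, at 673 CPM of RGS5, 1196 of NOTCH3, 523 of COX4I2 and 822 of NDUFA4L2. No comparison of ages was made.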

How the results depend on the processing

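With the MYH11 ACTG2 contrast, genes higher and lower numbered 348 and 344, and became 555 and 813 with no filter on low counts, 207 and 203 for HIGD1B barcodes without MYH11 and ACTG2 (4 libraries, not 7), and 128 and 137 when PDGFRA barcodes were left out of both classes (5 libraries). Leaving out 1 library at a time gave 228 to 338 higher and 218 to 325 lower, the lowest without the ileum. In the fibroblast contrast 1211 genes were lower with no filter, and leaving out 1 library gave 351 to 584 higher and 440 to 701 lower, the lowest without the jejunum. Of the 692 genes called against the MYH11 ACTG2 barcodes, 641 were called in the same direction by DESeq2, 403 of 654 tested with at least 2 HIGD1B UMIs (4 libraries), 522 of 661 without cecum and rectum and 193 of 570 without PDGFRA barcodes, where 15 had the opposite sign. With DES required in the MYH11 ACTG2 barcodes (5 libraries) 337 of 626 kept their call and 25 had the opposite sign, the most of any setting. For HIGD1B barcodes without MYH11 and ACTG2 321 of 651 kept it. Of 93 named genes tested without PDGFRA barcodes, 50 were on the same side of the threshold and 43 lost their call. With DES required 34 of 108 lost it and 1 was reversed, and for HIGD1B barcodes without MYH11 and ACTG2 33 of 109 lost it.

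The region comparison varied more with the setting. Genes higher and lower in the small intestine numbered 33 and 73 by DESeq2 and 249 and 344 with no filter, and 5 were higher without TMM. With at least 2 HIGD1B UMIs edgeR called 0 and 0 (99 and 106 at an unadjusted p under 0.05), and with doublets removed 0 and 5 (255 higher at an unadjusted p under 0.05). Leaving out 1 library gave 0 to 67 higher and 1 to 180 lower, with 67 and 180 without the colon. Of 16 genes named for this comparison, HOXB2, CXCL12, COL1A2, RGS5, COX4I2 and NDUFA4L2 had no call with all libraries. Of the others, 9 lost their call without the duodenum, 9 without the jejunum, 9 without the ileum and 9 without the cecum. For the interaction, DESeq2 called 2 higher and 23 lower, edgeR called 8 lower without TMM, and 8 and 25 without PDGFRA and DCN barcodes. Leaving out 1 library gave 0 to 7 higher (0 without the ileum, with 159 at an unadjusted p under 0.05) and 4 to 75 lower (75 without the colon).

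With at least 2 HIGD1B UMIs the share of the reticulum was 0.493%, that of the abomasum 0.480%, and the small intestine had 0.707% (duodenum), 1.43% (jejunum) and 0.806% (ileum) against 0.141% (cecum), 0.187% (colon) and 0.131% (rectum), and with PDGFRA and DCN barcodes taken out of members and of all barcodes the cecum had 0.216%. Without thinning, the difference in detected genes was -300.4 (exact permutation, adjusted p = 0.0469) and that in the share of barcodes with a proliferation gene -0.931 points (adjusted p = 0.703), opposite in sign to the thinned value. PDGFRA was at 0.32 with DES required in the MYH11 ACTG2 barcodes, and APOE at 0.0716 in the fibroblast contrast with at least 2 HIGD1B UMIs. The causes were not tested. Classes were compared within each library, so the library is the block in both class contrasts, and no pairing by replicate number exists with 1 library per tissue. The colon, cecum and rectum members, 21 to 40 per library, limit the region comparison.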
